A study of Mus musculus with 3 samples.

Results

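The 5 genes described here handle zinc in mouse cells: the metallothioneins Mt1 and Mt2, the transcription factor Mtf1, and the zinc transporters Slc30a1 and Slc39a14. They were chosen by name from the 32285 genes counted in every cell of the series. Their levels were compared between 3 kinds of stromal cell from fat, summed per mouse, and the co-variation of Mt1 and Mt2 was followed from cell to cell and from mouse to mouse.

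Metallothioneins are small, cysteine-rich proteins that bind zinc and copper and buffer the free metal in the cell. MTF1 senses free zinc and switches on metallothionein genes and Slc30a1 through short DNA words called metal response elements. Slc30a1 encodes ZnT1, which carries zinc out across the plasma membrane, and Slc39a14 encodes ZIP14, which brings zinc, iron and manganese in. Metallothionein genes and Slc39a14 are also known to respond to interleukin 6, and metallothionein genes to glucocorticoids and to oxidative stress.

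The cells came from the subcutaneous inguinal fat of 3 male wild-type C57Bl/6J mice, aged 8 weeks. The fat was digested with collagenase at 37°C, and cells without CD31 (endothelial) and CD45 (leukocyte) were sorted from its stromal vascular fraction. Each mouse gave 1 droplet library of single-cell RNA, so there was 1 condition, no treated group and no mutant allele. Classes were cut by raw counts of unique molecular identifiers (UMIs, each a counted RNA molecule) of 6 genes, none of them among the 5. Progenitors had 3 or more UMIs of Dpp4 and Pi16 together and at most 1 of Icam1 and Fabp4. Preadipocytes had 4 or more UMIs of Icam1 and Fabp4 and at most 1 of Dpp4. Regulatory cells had at least 1 UMI each of Clec11a and Fmo2, with at most 1 of Fabp4 and at most 1 of Dpp4.

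Of 12984, 6414 and 15179 cells with more than 500 genes and under 5% mitochondrial UMIs in mice 1, 2 and 3, 7399, 3169 and 9273 were progenitors. Preadipocytes numbered 2278, 1394 and 1889, regulatory cells 270, 384 and 404, and the 49, 119 and 96 cells that passed more than 1 gate were set aside. The median cell of mouse 2 held 12192.5 UMIs, against 7392.5 in mouse 1 and 6667 in mouse 3, and its median mitochondrial share was 2.27%, against 1.47% and 1.67%. Pairs of libraries shared 52 to 81 cell barcodes. Summed marker genes not used by the gates followed the labels. The 8 progenitor markers summed to 4494 to 5008 counts per 1000000 UMIs (CPM) in progenitors and to at most 1179 in the other classes. The 8 preadipocyte markers summed to 8411 to 10848 in preadipocytes and at most 4585 elsewhere. The 6 regulatory markers summed to 2338 to 2988 in regulatory cells and at most 984 elsewhere. Taken singly, the preadipocyte marker Apoe went the other way, at 979, 1177 and 1675 CPM in regulatory cells and 842, 616 and 969 in preadipocytes of mice 1, 2 and 3. The regulatory marker Cygb was close in both classes, at 534, 611 and 444 against 400, 597 and 432. Marker lists of leukocytes, endothelium, mural cells, mesothelium, glia and red cells each summed to at most 33.3 CPM in any class of any mouse, and Cd3e was at 0 in progenitors and regulatory cells.

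Mt2 and Mt1 lie head to tail on the plus strand of chromosome 8 (GRCm38): Mt2 at chr8:94172664-94173568 and Mt1 at chr8:94179082-94180327, with 5513 bases between them. Mtf1 is at chr4:124802104-124849800, Slc30a1 at chr1:191906767-191913247 and Slc39a14, on the minus strand, at chr14:70303469-70351425. Since reads of near copies can be split between them, the annotated transcripts were compared, and none of the 25-base words of Mt1 occurs in Mt2. Of the 1267 such words of Mt1, 3 occur in Mt3, and of the 579 of Mt2, 13 occur in Pip5k1a. Antisense genes overlap Mt2 (Gm45774, 74 to 236 UMIs per library) and Slc30a1 (1700034H15Rik, 1 to 5 UMIs), and 1110065P20Rik (2272 to 2710 UMIs) overlaps Mtf1 on the other strand. No source used here states that the counting was by strand, so reads of such pairs may have been mixed.

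The 250 bases before the RefSeq start of Mt1, Mt2 and Slc30a1 (GRCm38.p6, plus strand, 5′ to 3′) are shown because these genes are textbook targets of MTF1. Capitals mark the core of the metal response element, TGCACNC or TGCGCNC, read on either strand. The windows are chr8:94178839-94179088 for Mt1, chr8:94172368-94172617 for Mt2 and chr1:191906531-191906780 for Slc30a1.
Mt1: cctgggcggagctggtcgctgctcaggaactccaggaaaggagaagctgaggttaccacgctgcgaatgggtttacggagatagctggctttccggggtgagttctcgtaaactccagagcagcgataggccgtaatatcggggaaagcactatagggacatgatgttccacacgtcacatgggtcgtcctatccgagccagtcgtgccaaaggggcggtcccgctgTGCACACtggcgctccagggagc
Mt2: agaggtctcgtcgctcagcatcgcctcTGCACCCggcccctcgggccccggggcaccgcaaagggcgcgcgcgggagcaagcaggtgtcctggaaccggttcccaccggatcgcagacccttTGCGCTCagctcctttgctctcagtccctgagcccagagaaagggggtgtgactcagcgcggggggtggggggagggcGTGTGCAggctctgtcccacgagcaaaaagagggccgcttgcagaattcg
Slc30a1: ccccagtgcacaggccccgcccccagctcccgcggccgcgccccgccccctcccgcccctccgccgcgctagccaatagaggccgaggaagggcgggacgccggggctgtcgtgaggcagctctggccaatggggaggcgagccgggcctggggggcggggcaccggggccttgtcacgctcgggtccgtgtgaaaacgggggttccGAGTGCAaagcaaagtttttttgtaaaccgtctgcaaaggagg
The Mt2 window holds 3 cores, at 223, 128 and 50 bases before the start, while the Mt1 window holds 1 (at 23 bases) and the Slc30a1 window 1 (at 43 bases). Among 32851 RefSeq windows of this length, 21.4% hold at least 1 core and 0.770% at least 3. With the 50 bases after the start included, Mt1 has 3 cores, Mt2 4 and Slc30a1 2, and 25.7%, 1.31% and 0.295% of such 300-base windows hold at least 1, 3 and 4. The difference in cores between Mt1 and Mt2 thus depends on where the window ends. Neither count is read as the number of elements in the promoter. The Mtf1 window holds no core on either count, and Slc39a14 was not matched. Starts differ between annotations, by 7 bases for Mt1, 46 for Mt2, 14 for Slc30a1 and 445 for Mtf1 between RefSeq and GENCODE, the last farther than the window is long, and a word match is a description of the sequence.

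Mt1 and Mt2 were counted deeply in every class. Slc39a14 gave 1752 to 4450 UMIs per mouse in progenitors and 58 to 129 in regulatory cells, and Mtf1 and Slc30a1 gave fewer in each class. In progenitors Mt1 was at 3255, 5951 and 4214 CPM in mice 1, 2 and 3. Preadipocytes held 3780, 7252 and 5278 CPM of Mt1, and regulatory cells 4024, 7439 and 7015. In every class mouse 1 was lowest and mouse 2 highest, and within each mouse progenitors had the least Mt1.

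Mt2 ran the other way between the classes. Progenitors held 1154, 1997 and 1616 CPM of Mt2, preadipocytes 739, 1411 and 1203, and regulatory cells 786, 1632 and 1611. Progenitors had the most Mt2 in each mouse, although in mouse 3 regulatory cells came close. The order of the mice was again 1, 3, 2 from low to high in every class. Of the levels over mice, Mt1 averaged 4473 ± 1366 CPM (SD, n = 3) in progenitors, 5437 ± 1741 in preadipocytes and 6159 ± 1861 in regulatory cells, and Mt2 1589 ± 422, 1118 ± 344 and 1343 ± 483, so the spread between mice was as large as the steps between classes, and only comparison within a mouse separates them.

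Slc39a14, the zinc importer, was at 48.3, 45.7 and 72.1 CPM in progenitors, 27.7, 32.2 and 49.8 in preadipocytes and 40.7, 34.9 and 51.7 in regulatory cells. Mouse 3 was highest in every class, unlike for the metallothioneins. The exporter Slc30a1 was at 8.98, 8.16 and 9.93 CPM in progenitors and 7.88, 6.51 and 6.34 in preadipocytes, and in regulatory cells it rested on 15, 20 and 12 UMIs in all (10.5, 5.41 and 6.20 CPM). The zinc sensor Mtf1 stayed between 10.8 and 16.6 CPM in every class and mouse. Cells in no gate held Mt1 at 5860 ± 1904 CPM (SD, n = 3), Mt2 at 1586 ± 514 and Slc39a14 at 50.6 ± 14.4.

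**Figure D1:**
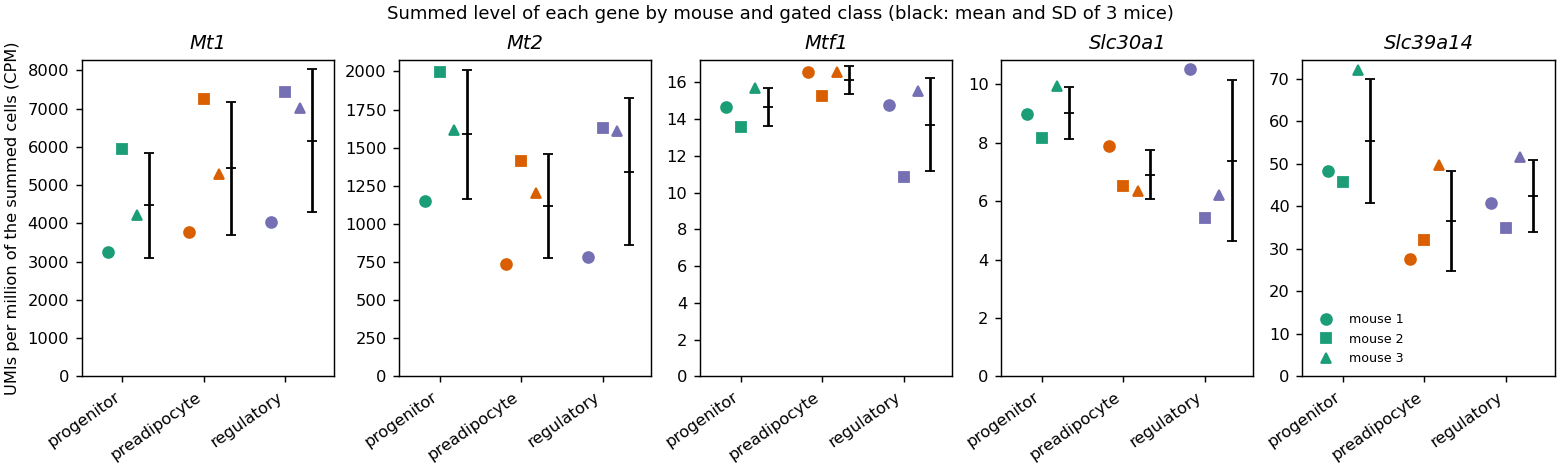
Counts per 1000000 UMIs (CPM, vertical axes from 0) of the 5 genes in the summed cells of each class (horizontal axis), with 1 point per mouse and the mean with its SD in black. Within a mouse, Mt1 is lowest and Mt2 and Slc39a14 are highest in progenitors, while mouse 2 (squares) is highest for both metallothioneins in every class.

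Mt1 and Mt2 differed between mice more than most genes did. The SD of log2 CPM over the 3 mice was 0.44 for Mt1 and 0.40 for Mt2 in progenitors, 0.47 and 0.49 in preadipocytes and 0.49 and 0.60 in regulatory cells. Among 8355 genes these lie at percentiles 87.6 to 94.7, where the median gene had an SD of 0.20 to 0.24. The highest mouse had 1.73 to 2.08 times the level of the lowest. Mouse 2 also had the highest median UMIs per cell and the highest median mitochondrial share, and the part of these in its metallothionein level was not tested. Slc39a14 lay at percentiles 83.0, 89.1 and 60.0 of the same measure in progenitors, preadipocytes and regulatory cells, and Mtf1 at 8.31 to 59.0. Slc30a1 was at 31.3 and 39.5 in progenitors and preadipocytes and at 89.6 in regulatory cells, where its counts were lowest.

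The sums were tested with edgeR (quasi-likelihood test, mouse as a block, adjusted over all genes tested). Between preadipocytes and progenitors 4 of the 5 genes passed, 1 higher and 3 lower, where 56.4% of all 13258 genes tested passed, 27.2% higher and 29.2% lower. Slc39a14 fell by 0.67 on the log2 scale (SE 0.0762, edgeR adjusted p = 1.11e-05) and Mt2 by 0.58 (SE 0.0847, edgeR adjusted p = 8.92e-05), in 3 of 3 mice each. Slc30a1 fell by 0.44 (SE 0.137, edgeR adjusted p = 0.0169) and Mt1 rose by 0.22 (SE 0.0864, edgeR adjusted p = 0.0469), also in 3 of 3 mice. For Mtf1 the difference was 0.09 (SE 0.0932, edgeR adjusted p = 0.438). The Mt1 call was lost without mouse 2 (log2 difference 0.22, edgeR adjusted p = 0.144), without mouse 3 (0.20, edgeR adjusted p = 0.0531) and with stricter gates (0.18, edgeR adjusted p = 0.174), and that of Slc30a1 without mouse 3 (-0.31, edgeR adjusted p = 0.138). Both were also lost with cells thinned to 3000 UMIs and gated again on the thinned counts (Mt1 0.20, edgeR adjusted p = 0.0639, and Slc30a1 -0.41, edgeR adjusted p = 0.0829). That setting changed class membership along with depth. Without the mouse term none of the 4 calls stood, with edgeR adjusted p between 0.0805 and 0.659.

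Regulatory cells differed from progenitors in the same direction for Mt1 and Mt2. Of the 5 genes 3 passed, 1 higher and 2 lower, against 42.9% of all genes (18.9% higher, 24.0% lower). Mt1 rose by 0.46 (SE 0.087, edgeR adjusted p = 0.00114), with log2 ratios of 0.31, 0.32 and 0.74 in mice 1, 2 and 3. Without the cells above the median of their mouse and class in the share of UMIs from 24 dissociation-response genes, its difference was 0.27 and the call was lost (edgeR adjusted p = 0.0732). Slc39a14 fell by 0.41 (SE 0.105, edgeR adjusted p = 0.00773) and Mt2 by 0.28 (SE 0.086, edgeR adjusted p = 0.0198). The Mt2 ratios were uneven, -0.55 in mouse 1, -0.29 in mouse 2 and -0.00396 in mouse 3, and the call was lost without mouse 1 (-0.13, edgeR adjusted p = 0.296) or mouse 2 (-0.25, edgeR adjusted p = 0.146). The Slc39a14 call was lost without mouse 2 (edgeR adjusted p = 0.0624) or mouse 3 (edgeR adjusted p = 0.0786), and all 3 calls without the mouse term (edgeR adjusted p of 0.339 to 0.663). At equal depth, with the gates applied again to the thinned counts, Mt2 (-0.22, edgeR adjusted p = 0.0756) and Slc39a14 (-0.43, edgeR adjusted p = 0.0540) no longer passed. Slc30a1 differed by -0.39 (SE 0.222, edgeR adjusted p = 0.183), with -0.63 without mouse 1 and -0.21 without mouse 2, and Mtf1 by -0.15 (SE 0.143, edgeR adjusted p = 0.449), on few UMIs.

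Preadipocytes and regulatory cells were also compared directly. Mt2 alone of the 5 passed, 0.30 lower in preadipocytes (SE 0.0861, edgeR adjusted p = 0.0231), where 25.7% of all genes passed, 13.4% higher and 12.3% lower. Mt1 differed by -0.24 (SE 0.0869, edgeR adjusted p = 0.0677) and Slc39a14 by -0.26 (SE 0.111, edgeR adjusted p = 0.116), with -0.11 for Mt1 without mouse 3 and -0.13 for Slc39a14 without mouse 1. The Mt2 call did not stand in every setting. Without the cells above the median of their mouse and class in the share of dissociation-response UMIs, the difference was -0.02 (edgeR adjusted p = 0.947). The call was also lost without mouse 2 (-0.33, edgeR adjusted p = 0.101), without mouse 3 (-0.20, edgeR adjusted p = 0.137) and without the mouse term (-0.31, edgeR adjusted p = 0.680).

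These 24 dissociation genes, immediate early and heat shock genes known to rise when tissue is digested, moved with the classes. They summed to 22571 to 25620 CPM in progenitors, 32132 to 40673 in preadipocytes and 30540 to 34876 in regulatory cells. In preadipocytes 17 of 24 were higher than in progenitors and 3 lower, where 27.2% and 29.2% of all genes were, with a median log2 difference of 0.59 against 0.00 over all genes. When the cells above the median response of their mouse and class were left out, Mt2 and Slc39a14 stayed lower in preadipocytes than in progenitors, while Mt1 (0.26, edgeR adjusted p = 0.0580) and Slc30a1 (-0.32, edgeR adjusted p = 0.0776) no longer passed. This cut was made within each class, so it does not level the response between classes. The part of dissociation in the class differences was not tested.

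**Figure D2:**
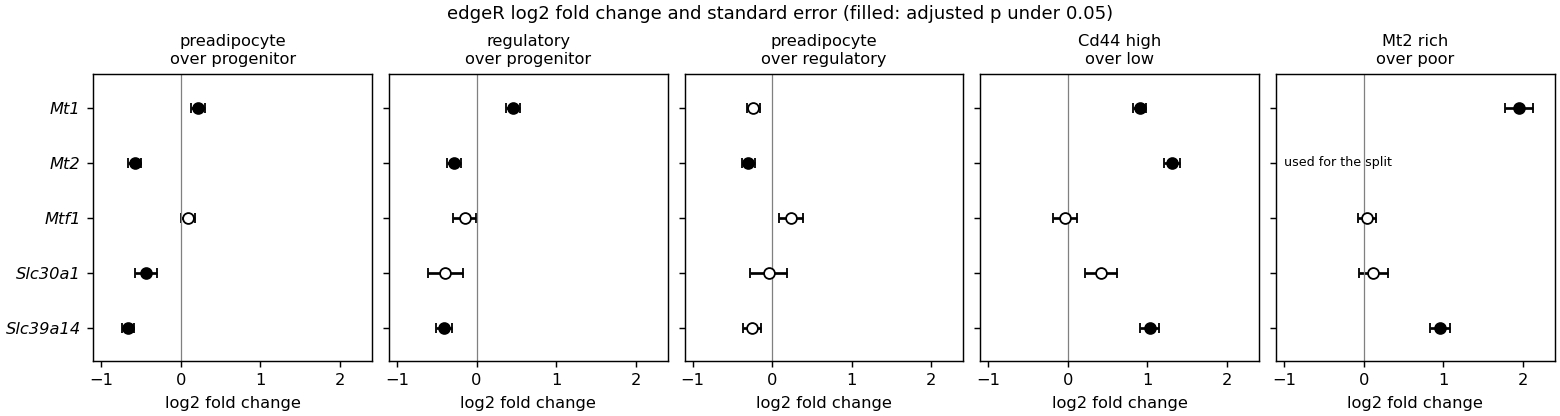
Log2 fold changes (horizontal axes, the same range in each panel) with standard errors for the 5 genes in 5 comparisons of summed counts, filled where the edgeR adjusted p is under 0.05. Mt1 lies right of 0 and Mt2 left of 0 against progenitors, whereas Mt1, Mt2 and Slc39a14 all lie right of 0 in Cd44 high preadipocytes, and Mt2 is not shown where it chose the cells.

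The opposite steps of Mt1 and Mt2 appear most directly in the share of Mt2 among the UMIs of both genes. This share does not depend on library size, and counts from the 3′ end do not grow with gene length, but capture may differ between genes, so the share was compared between classes and not read as a ratio of molecules. It was 26.2%, 25.1% and 27.7% in the progenitors of mice 1, 2 and 3. Preadipocytes stood at 16.4%, 16.3% and 18.6%, and regulatory cells at 16.3%, 17.99% and 18.7%. No preadipocyte or regulatory value reached the lowest progenitor value, while those of preadipocytes and regulatory cells overlapped. Exact 95% binomial intervals cover counting error only. The widest, in the regulatory cells of mouse 1, ran from 15.5% to 17.2%.

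Within mice, the share was 9.27 ± 0.497 points lower in preadipocytes than in progenitors (SD, n = 3) and 8.67 ± 1.39 points lower in regulatory cells. An exact two-sided sign-flip permutation test gave p = 0.25 for each, the smallest that 3 mice allow. Between preadipocytes and regulatory cells the difference was -0.597 ± 0.960 points (SD, n = 3, exact sign-flip permutation p = 0.5). Cells in no gate lay between the classes, at 20.3% to 22.8%. The share of the mice did not follow the order of their metallothionein level: mouse 2, the highest in level, had the lowest progenitor share, and mouse 3 had the highest share in every class.

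Cells thinned to 3000 UMIs were also ordered by Mt1 and Mt2 together, to describe the share along the amount. They were cut into 3 parts at the terciles within each mouse and class, with cells of equal counts kept together, so the parts differ in size. In progenitors the share was 25.2% to 31.4% over the 9 combinations of mouse and part. It was 9.85% to 19.6% in preadipocytes and 14.4% to 20.9% in regulatory cells. The lowest parts of progenitors and preadipocytes averaged only 3.29 to 5.31 UMIs of both genes per cell. The part of the amount in the class difference was not tested. The trend with the amount differed between mice and classes. It fell from 28.4% to 25.7% and from 31.4% to 27.1% in the progenitors of mice 1 and 3, and rose from 9.85% to 17.4% and from 16.2% to 19.6% in the preadipocytes of mice 2 and 3.

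**Figure D3:**
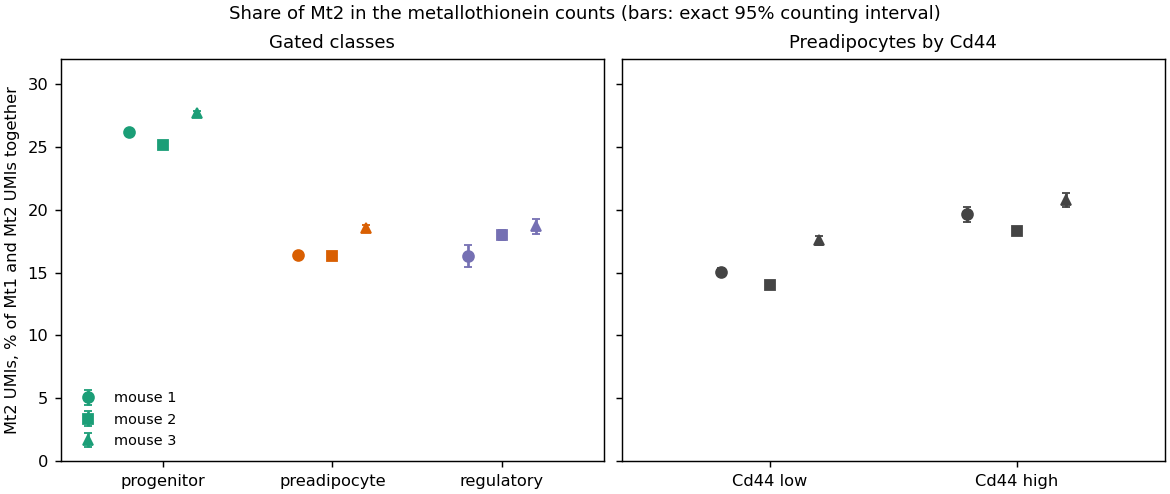
Mt2 UMIs as a percent of Mt1 and Mt2 UMIs together (vertical axis from 0), by class on the left and for preadipocytes without or with Cd44 on the right, 1 point per mouse with its exact 95% counting interval. The progenitors of all mice lie between 25.1% and 27.7%, above every preadipocyte and regulatory value, and within each mouse Cd44 high cells lie above Cd44 low cells.

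Within a class, cells differed widely in metallothionein. At 3000 UMIs per cell, the median progenitor held 11, 16 and 14 UMIs of Mt1 and Mt2 together in mice 1, 2 and 3, the median preadipocyte 11, 14 and 16, and the median regulatory cell 12, 20 and 23. The 90th percentile was 28 to 29.2 UMIs in every class of mouse 1 but 58, 72 and 67.7 in the progenitors, preadipocytes and regulatory cells of mouse 2. Mouse 2 was thus set apart by its upper tail more than by its middle. In its preadipocytes 25% of the cells had 5 UMIs or fewer and 25% had 45 or more. Cells with 30 or more UMIs, 1% of all their RNA, made up 8.34% to 10.0% of each class in mouse 1, 31.0% to 38.3% in mouse 2 and 18.4% to 37.3% in mouse 3.

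Between 0.339% and 4.12% of cells had no Mt1 UMI at this depth, and 7.12% to 35.5% had no Mt2 UMI. No sorted cell type that should lack these genes was available, so the share of free RNA in such counts was not measured. The variance over the mean of Mt1 was 6.82 to 8.01 in mouse 1, 16.1 to 23.7 in mouse 2 and 8.72 to 10.4 in mouse 3, where counting error alone gives 1. Of 1905 genes compared, at most 16 had a higher ratio than Mt1 in any mouse and class, and in the preadipocytes of mouse 2 no other gene did. For Mt2 the ratio was 3.00 to 7.97, with 13 to 68 genes above it. The ratio can rise with the mean count, which for Mt1 was 9.90 to 23.4 UMIs. Genes were not matched for level, so these ranks also reflect abundance.

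**Figure D4:**
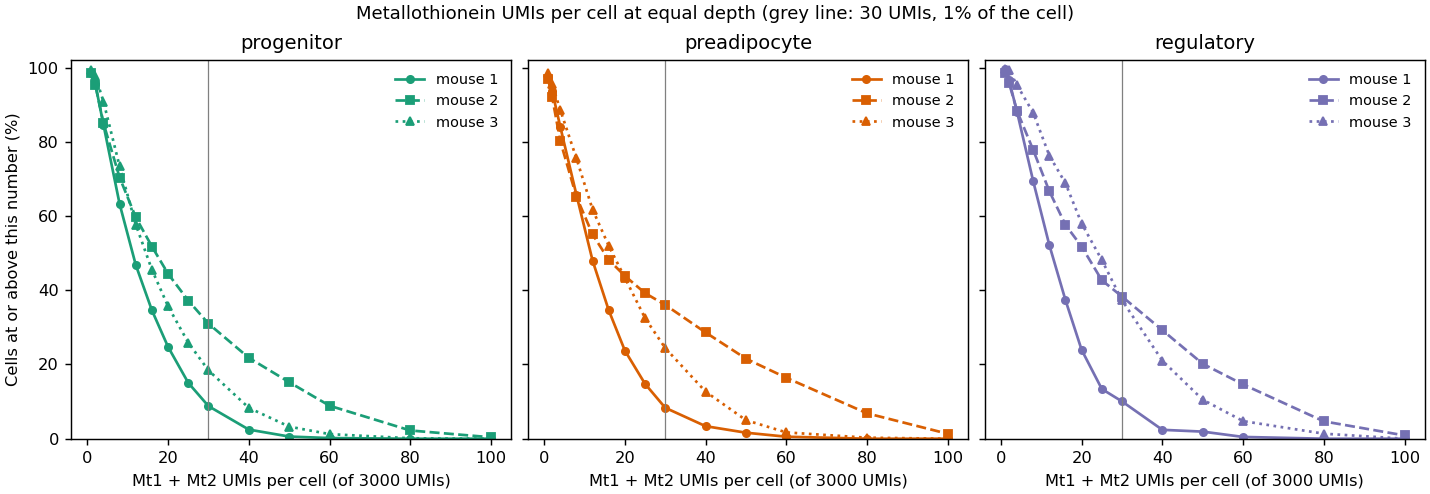
Percent of cells (vertical axis) with at least the given number of Mt1 and Mt2 UMIs among 3000 (horizontal axis), by class and mouse. At the grey line of 30 UMIs, mouse 1 is at 8.34% to 10.0% in every class and mouse 2 at 31.0% to 38.3%, and the line of mouse 2 in preadipocytes is the flattest.

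Mt1 and Mt2 rose and fell together from cell to cell. Pearson's r of log2(UMIs + 1) at equal depth was 0.601, 0.755 and 0.632 in the progenitors of mice 1, 2 and 3. It was 0.508, 0.769 and 0.658 in preadipocytes and 0.514, 0.731 and 0.613 in regulatory cells. The cells of a point share 1 library and 1 depth, so these are descriptions over 209 to 8470 cells each. Thinning left out 35 to 803 cells per mouse and class, and over all cells, log-normalized, r was 0.558 to 0.810. Mouse 2, with the widest spread between cells, had the highest r in every class.

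The dependence was graded. Progenitors of mouse 1 with no Mt2 UMI had 4.17 Mt1 UMIs on average, those with 4 to 7 Mt2 UMIs had 13.2, and those with 8 to 15 had 19.6. In mouse 2 the same progenitors had 4.06, 16.7 and 30.7, and in mouse 3 4.77, 13.5 and 21.9. Cells without Mt2 held similar Mt1 in the 3 mice, and the mice parted as Mt2 rose. At the same Mt2 count preadipocytes held more Mt1 than progenitors, with 17.7, 36.5 and 21.7 Mt1 UMIs in mice 1, 2 and 3 at 4 to 7 Mt2 UMIs, and regulatory cells held 19.7, 28.4 and 24.6.

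**Figure D5:**
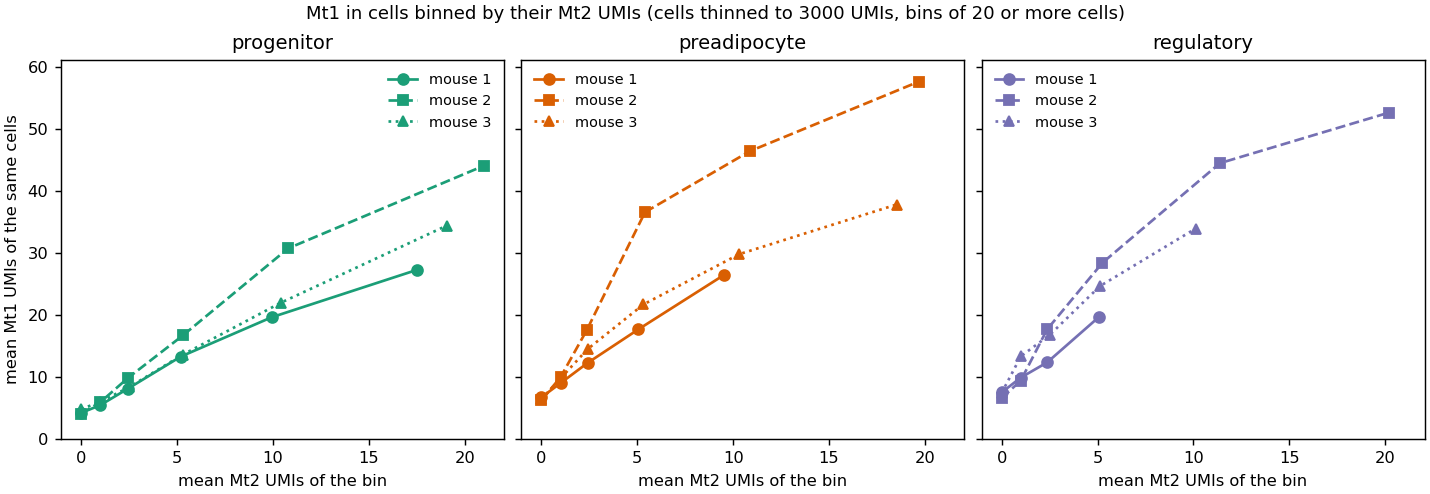
Mean Mt1 UMIs (vertical axis) of cells binned by Mt2 UMIs (horizontal axis, mean of the bin), for cells thinned to 3000 UMIs, by class and mouse. Cells with no Mt2 UMI hold 4.06 to 4.77 Mt1 UMIs in progenitors, 6.20 to 6.68 in preadipocytes and 6.54 to 7.46 in regulatory cells, and every line climbs from there, that of mouse 2 the most at high Mt2.

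Other measures of the cells followed Mt1 and Mt2 weakly. Their summed level correlated with the share of mitochondrial UMIs at r of -0.268 to 0.068, with the log of the cell's raw UMIs at -0.165 to 0.069 and with the share of dissociation-response UMIs at -0.277 to 0.192 over the 9 combinations of mouse and class. The 3 other members were too sparse for a reading from cell to cell. Slc39a14 had a median r of 0.106 with Mt1 and 0.105 with Mt2, and Mtf1 and Slc30a1 had medians between -0.014 and 0.013 with either.

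Among 1904 genes at 50 CPM or more in all 9 sums, Mt2 was the most like Mt1 across cells and Mt1 the most like Mt2, with a mean r of 0.652. Next for both came Tnfaip6, whose product TSG-6 binds and cross-links hyaluronan (mean r 0.501 with Mt1 and 0.478 with Mt2), then Has1, a hyaluronan synthase (0.377 and 0.387). The 10 genes most like Mt1 went on with Ifi205, the pentraxin Ptx3, Socs3 (an inhibitor of cytokine signalling), Ugdh (which makes a precursor of hyaluronan), the transcription factor Cebpb, the hexokinase Hk2 and the chemokine Cxcl1, at mean r of 0.359 to 0.324. Those most like Mt2 shared 7 of the 10 with Mt1 and added the other metallothionein, Clic4 and Uap1, which makes another hyaluronan precursor. Each of these genes had a positive r in all 9 combinations. The median gene had a mean r of -0.013 with Mt1, and the 99th percentile was 0.279.

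What else differed with Mt2 was compared over sums rather than cells. Within each mouse and class, cells above the upper tercile of Mt2 UMIs were summed against cells at or below the lower tercile, all at 3000 UMIs, and tested with each of the 9 pairs as a block. The 9 pairs come from 3 mice, so the errors of this fit understate the spread between animals, and the cells were also summed over the classes of a mouse to give 3 pairs, a choice made after seeing the data. Mt2 chose the cells, so its own difference (a log2 difference of 4.00) is a description. The Mt2-rich cells had median raw UMIs close to those of the Mt2-poor cells, for example 7329 and 7492 in the progenitors of mouse 1. Of the other 4 members 2 passed, both higher, against 19.2% of all 10505 genes tested (10.7% higher, 8.51% lower). Scaled by library size in place of TMM, the median of all genes moved from -0.02 to -0.13, with 716 genes higher and 2058 lower in place of 1123 and 894, and both members stayed called and higher.

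Mt1 was at 5504, 11504 and 7346 CPM in the Mt2-rich progenitors of mice 1, 2 and 3 and at 1865, 1985 and 2065 in the Mt2-poor ones. The terciles were set in each mouse, and rich progenitors had more than 4, 7 and 6 Mt2 UMIs in mice 1, 2 and 3 while poor ones had at most 2 in each, so the rich cells of the mice are not matched in Mt2. In preadipocytes the rich cells held 5823, 16056 and 8959 CPM and the poor 2541, 2067 and 2664. Over all classes Mt1 was 1.95 higher in Mt2-rich cells on the log2 scale (SE 0.17, edgeR adjusted p = 2.67e-07), with log2 ratios of 1.28, 2.66 and 1.51 in mice 1, 2 and 3. Over the 3 pairs it was 2.104 higher (edgeR adjusted p = 0.000696). Slc39a14 was at 59.8, 73.7 and 96.1 CPM in rich and 41.7, 30.6 and 53.0 in poor progenitors, and at 30.9, 51.2 and 79.98 in rich and 28.7, 15.9 and 36.6 in poor preadipocytes. Its difference was 0.96 (SE 0.123, edgeR adjusted p = 1.76e-05), higher in 3 of 3 mice, and 0.98 over the 3 pairs (edgeR adjusted p = 0.00399). In regulatory cells alone Slc39a14 was not called (0.92, SE 0.465, edgeR adjusted p = 0.544).

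The zinc sensor and the exporter did not move with Mt2 beyond their error. Mtf1 differed by 0.04 (SE 0.114, edgeR adjusted p = 0.864), whereas its log2 ratios of the levels averaged over classes were -0.03, -0.39 and -0.31 in mice 1, 2 and 3, so no direction is read. Slc30a1 differed by 0.12 (SE 0.184, edgeR adjusted p = 0.707). In progenitors, where counts were highest, Slc30a1 was at 6.89, 10.2 and 10.4 CPM in rich and 9.68, 9.36 and 8.44 in poor cells, so the groups overlapped. Whether the Mt2-related differences depended on the class was tested as an interaction. For Mt1 the effect in preadipocytes differed from that in progenitors by -0.01 (SE 0.371) and that in regulatory cells by -0.42 (SE 0.372), and for Slc39a14 by 0.03 (SE 0.261) and -0.02 (SE 0.493). Each had an edgeR adjusted p of 0.963 or more, with intervals too wide to call the classes alike.

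A list of genes tied to interleukin 6 and STAT3 signalling, which also holds the chemokine Ccl2, was counted in Mt2-rich cells. Like the other gene lists, it was chosen with earlier results of these data known. Its Il6 and Socs3 also follow Mt1 and Mt2 across the same cells, so the count is a description and not independent evidence. Of 12 genes 11 were tested, 9 were higher in Mt2-rich cells and the remaining 2, Lif and Lifr, did not pass, where 10.7% of all genes were higher, with a median log2 difference of 1.05 against -0.02 over all genes. Il6, the cytokine itself, was 2.23 higher (SE 0.161, edgeR adjusted p = 2.86e-08), and Ccl2, a chemokine that draws monocytes, 1.54 higher (SE 0.188, edgeR adjusted p = 9.65e-06). The Mt2 calls of this and the other gene lists come from the fit over pairs of mouse and class. Its errors understate the spread between animals, and list values over the sums per mouse are not given. Of the 24 dissociation genes 6 were higher and 12 lower, beside 10.7% and 8.51% of all genes, among the lower Hspa1a (-1.47) and Hspa1b (-1.31), heat shock proteins. Mt1 and Slc39a14 stayed called, in the same direction, without the cells above the median dissociation response. Between classes the 12 interleukin 6 genes went both ways. Against progenitors, 5 were higher and 5 lower in preadipocytes, beside 27.2% and 29.2% of all genes. In regulatory cells 6 were higher and 4 lower, beside 18.9% and 24.0%.

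The same members moved with Cd44 inside the preadipocyte gate. Cd44, the hyaluronan receptor, is the gene by which the study parted its preadipocytes, and Mt2 was among the markers it chose on these mice, so the Mt2 difference is not independent evidence. Preadipocytes with 2 or more Cd44 UMIs (294, 312 and 324 cells) were compared with those at 0 (1557, 756 and 1157 cells). The Cd44 high cells had more UMIs, with medians of 8862 and 7863 in mouse 1, 13729 and 12607 in mouse 2, and 7579 and 7118 in mouse 3. Of the 5 members 3 passed, all higher, against 18.1% of 11280 genes (12.2% higher, 5.86% lower). With library-size scaling 918 genes were higher and 1262 lower, in place of 1376 and 661, with DESeq2 627 and 131, and the 3 members stayed called and higher.

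Slc39a14 was at 37.8, 54.5 and 73.9 CPM in the Cd44 high preadipocytes of mice 1, 2 and 3 and at 25.8, 23.8 and 37.9 in the Cd44 low ones. It was higher in each mouse, while the highest low value lay just above the lowest high value, and the difference was 1.03 (SE 0.116, edgeR adjusted p = 0.000101). Mt1 was at 4992, 11222 and 7333 CPM in Cd44 high and 3427, 5096 and 4430 in Cd44 low cells, 0.90 higher (SE 0.0877, edgeR adjusted p = 3.60e-05). Mt2 rose more, from 608, 829 and 945 CPM to 1221, 2511 and 1922, a difference of 1.31 (SE 0.0994, edgeR adjusted p = 6.87e-06). Its share of the metallothionein UMIs was 15.1%, 14.0% and 17.6% in Cd44 low and 19.6%, 18.3% and 20.8% in Cd44 high cells, 4.02 ± 0.735 points higher (SD, n = 3, exact sign-flip permutation p = 0.25, the smallest possible). Slc30a1 differed by 0.42 (SE 0.2, edgeR adjusted p = 0.180) and Mtf1 by -0.04 (SE 0.154, edgeR adjusted p = 0.898). The 3 calls held under every alternative but the fit without the mouse term (edgeR adjusted p of 0.157 to 0.314), where 1 gene in all passed. At equal depth, with cells of 1 or more Cd44 UMIs among 3000 against those of 0, the differences were smaller, 0.60 for Mt1, 0.86 for Mt2 and 0.60 for Slc39a14, and still called. Here too the interleukin 6 list was higher (9 of 12) and the dissociation list mostly lower (13 of 24, with 3 higher), beside 12.2% of all genes higher and 5.86% lower.

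The other zinc, copper and iron genes were counted in the same comparisons. Of 36 listed genes 26 were tested, and 10 were too low, among them the neural Mt3 and the epithelial Mt4, with 3 to 7 and 7 to 15 UMIs per library. Preadipocytes differed from progenitors in 20 of the 26, with 9 higher and 11 lower, where 56.4% of all genes passed, 27.2% higher and 29.2% lower. The median log2 difference was -0.12 against 0.00 over all genes. Higher were the copper importer Slc31a1 (0.95, SE 0.0733, edgeR adjusted p = 3.07e-07) and the zinc transporters Slc39a1 (0.58, SE 0.0611, edgeR adjusted p = 5.44e-06) and Slc39a13 (0.53, SE 0.0715, edgeR adjusted p = 4.73e-05). The iron exporter Slc40a1 was at 2.28 to 3.34 CPM in preadipocytes and 0.35 to 0.45 in progenitors, and Slc11a2, an importer of iron, was 0.50 higher (SE 0.0721, edgeR adjusted p = 7.75e-05).

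Lower in preadipocytes were the copper chaperone Atox1 (-0.75, SE 0.0597, edgeR adjusted p = 3.90e-07), the transferrin receptor Tfrc (-1.13, SE 0.214, edgeR adjusted p = 0.000700), Slc39a11 (-0.83, SE 0.136, edgeR adjusted p = 0.000231) and Slc31a2 (-0.66, SE 0.089, edgeR adjusted p = 4.62e-05). Slc30a10, a manganese exporter, was at 0.762, 2.06 and 0.745 CPM in progenitors and had 0, 0 and 1 UMIs in preadipocytes and 0 in the regulatory cells of each mouse. It was called lower in both (edgeR adjusted p = 0.000104 and 0.0115), and no fold is given against classes with 0 or 1 UMI per mouse. In the regulatory cells of mouse 2, 3 counts would be 0.811 CPM, below the progenitor level of that mouse, while in mice 1 and 3 they would be 2.11 and 1.55 CPM, above it, so only mouse 2 had the depth to show the difference.

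In regulatory cells 5 of the 26 were higher and 9 lower than in progenitors, where 18.9% of all genes were higher and 24.0% lower (median -0.27 against -0.05 over all genes). Slc31a1 (0.73, SE 0.112, edgeR adjusted p = 0.000230) and Slc39a13 (0.62, SE 0.101, edgeR adjusted p = 0.000381) were again higher, and Slc30a4 (-0.69, SE 0.116, edgeR adjusted p = 0.000442) and Atox1 (-0.67, SE 0.0639, edgeR adjusted p = 4.17e-06) lower. The ferritin heavy chain Fth1, which stores iron, was at 14148, 15007 and 13546 CPM in regulatory cells, 7641, 9427 and 7735 in progenitors and 5423, 6749 and 6052 in preadipocytes. The 3 classes did not overlap in Fth1, and it was 1.29 lower in preadipocytes than in regulatory cells (SE 0.0764, edgeR adjusted p = 2.01e-07). Between those classes 4 of the 26 were higher in preadipocytes and Fth1 alone was lower, where 13.4% of all genes were higher and 12.3% lower.

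The same list was read against Mt2 and Cd44. Of 24 tested in Mt2-rich cells, 5 were higher and 4 lower, where 10.7% of all genes were higher and 8.51% lower. Among the higher were Slc11a2 (1.03, SE 0.119, edgeR adjusted p = 5.36e-06) and Tfrc (0.75, SE 0.251, edgeR adjusted p = 0.0425), and among the lower Slc31a2 (-0.58, SE 0.111, edgeR adjusted p = 0.000960). In Cd44 high preadipocytes 4 of 25 were higher and none lower, against 12.2% and 5.86% of all genes: Slc11a2 (0.86, SE 0.125, edgeR adjusted p = 0.000580), Slc39a6 (0.49, SE 0.115, edgeR adjusted p = 0.0118), Fth1 (0.29, SE 0.0474, edgeR adjusted p = 0.00135) and Atox1 (0.19, SE 0.0607, edgeR adjusted p = 0.0457). Unlike Slc39a14, the related zinc transporters Slc39a13 (-0.33, SE 0.100, edgeR adjusted p = 0.0249) and Slc39a10 (-0.27, SE 0.0871, edgeR adjusted p = 0.0354) were called lower in Mt2-rich cells. The zinc channel of internal membranes Slc39a7 was also called lower (-0.25, SE 0.0751, edgeR adjusted p = 0.0234). The Mt2 calls of this list come from the fit over pairs of mouse and class, whose errors understate the spread between animals. Their differences over the sums per mouse are not given. The calls near the threshold, those of Slc39a13, Slc39a10, Slc39a7 and Tfrc, are therefore provisional, and so is the contrast with Slc39a14.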

How the data were processed

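Single-cell RNA was measured in 1 library from each of 3 mice. The authors deposited raw UMI counts per gene and cell barcode, without normalization, made with Cell Ranger (4.0.0 in the matrix headers, 2.1.1 in the submitters' processing notes) on mm10. The libraries held 13698, 6872 and 16220 barcodes and 79801002 to 100846072 UMIs. Cells were gated as described above, with no doublet caller and no clustering. Cells from the same animal were summed per class (1424351 to 61731512 UMIs), and CPM were computed from the sums. Sums were tested with edgeR 4.0.16 (R 4.3.3; filterByExpr, TMM, quasi-likelihood test, Benjamini-Hochberg adjustment over all genes tested, threshold 0.05). The mouse entered as a block because the classes share animals: deviations of sums of a mouse from the class means correlated at a mean r of 0.255, 0.492 and 0.361 in mice 1, 2 and 3. Gate genes, Cd44 and Mt2 were not counted among called genes where they chose the cells. Equal depth means each cell thinned to 3000 UMIs, shallower cells left out. In the comparisons between classes the gates were applied again to the thinned counts, so class membership changed along with depth. The procedure was tested on simulated counts drawn independently, with no mouse effect. That test does not check the mouse block or the errors of the fit over pairs of mouse and class. The members and gene lists were chosen with earlier results of these data known.

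Named besides the members were up to 5 genes each way from the metal list in a comparison, the 10 genes most like Mt1 or Mt2, and up to 2 genes from each other list. Alternatives covered normalization, filter, DESeq2 1.42.0, the block, single mice, the mitochondrial limit (under 10%), high-UMI cells, dissociation response, depth and gates; keeping cells of 2 gates in both and summing Mt2-rich and Mt2-poor cells per mouse were chosen after seeing the data. Sums and figures were made in Python (version 3.11.15) with matplotlib 3.10.9, scipy 1.17.1, pandas 2.3.3 and numpy 2.4.6.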

Additional observations from a re-analysis of the deposited data

How the results depend on the processing

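Of 375 repeats of 30 results under an alternative, 312 were rated the same. For a member this meant that direction and side of the threshold were kept, also where it was not called. For a count of called genes it meant staying within a fixed fold range, and for the correlation of Mt1 and Mt2 within 1 SD between mice. The fit with no replicate block (the mouse) lost every call between classes and by Cd44: against progenitors, preadipocyte differences were 0.23 (Mt1), -0.56 (Mt2), -0.44 (Slc30a1) and -0.65 (Slc39a14), regulatory ones 0.46, -0.25 and -0.40 (Mt1, Mt2, Slc39a14), preadipocyte minus regulatory -0.31 (Mt2), and Cd44 0.97, 1.36 and 1.03 (Mt1, Mt2, Slc39a14). It moved the count of called genes from 7472 to 3996, 5693 to 3130 and 3404 to 1531 in the class comparisons, from 2037 to 1 for Cd44 and from 2017 to 931 for Mt2. Thinning to 3000 UMIs, with classes gated again on the thinned counts, lost Mt1 (0.20) and Slc30a1 (-0.41) in preadipocytes against progenitors. It lost Mt2 (-0.22) and Slc39a14 (-0.43) in regulatory cells against progenitors and gained Mt1 (-0.35) between preadipocytes and regulatory cells. Thinning gave 3338, 1852 and 667 called genes for regulatory minus progenitor, preadipocyte minus regulatory and Cd44, the last with the preadipocyte gate on raw counts. Without the cells above the median dissociation response, Mt1 (0.26 preadipocyte, 0.27 regulatory) and Slc30a1 (-0.32) against progenitors and Mt2 (-0.0180) between the other classes were lost, with 2231 and 1325 called genes for preadipocyte minus regulatory and for Mt2. Stricter gates lost Mt1 (0.18), and library size in place of TMM lost Mt2 between preadipocytes and regulatory cells (-0.25). Mt1 passed in that comparison with DESeq2 (-0.26), no filter (-0.20) and the 10% mitochondrial limit (-0.25). DESeq2 called 758 genes by Cd44.

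Leaving out each mouse in turn gave, for preadipocyte minus progenitor, 0.20 to 0.28 (Mt1) and -0.51 to -0.31 (Slc30a1). For regulatory minus progenitor it gave -0.42 to -0.13 (Mt2), -0.41 to -0.36 (Slc39a14) and -0.21 to 0.0128 (Mtf1), and for preadipocyte minus regulatory -0.36 to -0.20 (Mt2), -0.24 to 0.12 (Slc30a1) and 2053 to 2800 called genes. It gave -0.17 to 0.10 (Mtf1) and 1059 to 2231 genes for Cd44, and -0.0463 to 0.15 (Mtf1), -0.11 to 0.34 (Slc30a1) and 902 to 1598 genes for Mt2. The correlation of Mt1 and Mt2 (0.652 over the 9 combinations) ranged from 0.591 to 0.698 without 1 mouse, and the other measures kept it within 1 SD between mice (0.105). Cells of 2 gates kept in both, and Mt2-rich and Mt2-poor cells summed over the classes of a mouse (1390 called genes), alternatives chosen after seeing the data, changed no call of a member. DESeq2 gave no adjusted p for Slc30a1 by Cd44. With 12 to 20 UMIs of Slc30a1 per mouse in regulatory cells, depth limits its comparisons.

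Differences under the threshold changed sign: Slc30a1, preadipocyte minus regulatory, was 0.00235 with library size, 0.12 without mouse 1, 0.0454 without the top 5% of cells by UMIs, 0.11 at low dissociation response, 0.67 thinned and 0.16 with stricter gates. Mtf1 was 0.0128 without mouse 2 and 0.0808 at low dissociation response (regulatory minus progenitor), 0.10 without mouse 3 (Cd44), and -0.0707 with library size, -0.0463 without mouse 1 and -0.13 when Mt1 split the cells (Mt2). Slc30a1 was -0.11 without mouse 3 (Mt2). The causes were not tested.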

Other observations

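Genes of the oxidative stress response through NRF2 moved both with the classes and with Mt2. The list also holds Nfe2l2, which encodes NRF2 itself, and its inhibitor Keap1, so not every member is a target. Of 12 listed genes 9 were lower and 2 higher in preadipocytes than in progenitors, where 29.2% of all genes were lower and 27.2% higher, with a median log2 difference of -0.73 against 0.00 over all genes. The largest falls were 1.96 for the cystine transporter Slc7a11 and 1.59 for Gclc, a subunit of the enzyme that starts glutathione synthesis. Slc7a11 rested on only 12, 27 and 14 UMIs in the preadipocytes of mice 1, 2 and 3. Mt2 was also lower in preadipocytes (log2 difference -0.58), while Mt1 was higher (0.22). Within classes, of 10 tested, 6 were higher and 2 lower in Mt2-rich cells, where 10.7% of all genes were higher and 8.51% lower, with a median of 0.54 against -0.02. Srxn1, which repairs peroxiredoxins, was 1.56 higher and the thioredoxin reductase Txnrd1 1.48 higher. The listed genes summed to 1605, 1892 and 2465 CPM in the progenitors of mice 1, 2 and 3 and to 1247, 1284 and 1314 in preadipocytes, an order of mice unlike that of Mt1 and Mt2.

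The listed glucocorticoid genes, among them the receptor Nr3c1 and the enzyme Hsd11b1, went both ways. Of 12, 8 were higher and 3 lower in Mt2-rich cells (median 0.30), beside 10.7% and 8.51% of all genes. The largest changes, Ddit4 (-1.82) and the classic target Tsc22d3 (-0.87), were both among the 3 lower. Summed, the list was higher in Mt2-rich cells in every class of each mouse, but abundant genes weigh most in such a sum. Over all progenitors Errfi1 averaged 2022 CPM and Cebpd 928, against 65.4 for Tsc22d3 and 13.2 for Ddit4. In progenitors the sum stood at 5237, 5579 and 4902 CPM in rich and 3911, 3833 and 4040 in poor cells of mice 1, 2 and 3. In Cd44 high preadipocytes 3 were higher and 4 lower (median 0.10), beside 12.2% and 5.86% of all genes.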
